A study of Mus musculus with 18 samples.

Results

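Triglyceride is built stepwise from glycerol 3-phosphate and fatty acyl-CoA, and 7 genes that code for enzymes of this assembly were followed: Gpd1, Pck1, Gpam, Agpat2, Lpin1, Dgat1 and Dgat2. They were found by gene symbol, each symbol matched 1 entry of the table, and they are 7 of 56691 genes. All 7 passed the filter on low counts that kept 17631 genes for testing, but Pck1 passed it through the AI_F9 samples alone, so it had to differ there, and counts of genes are also given for the other 6. The cells were bone marrow mesenchymal stem cells (BMSCs) of wild-type mice, which the study isolated from compact bone and which can become osteoblasts or adipocytes. They were cultured for 4 days in adipogenic induction medium with FGF9 (AI_F9) or without it (AI), osteogenic induction medium with FGF9 (OI_F9) or without it (OI), or culture medium with FGF9 (CM_F9) or without it (CM), with 3 samples in each of the 6 groups and 18 samples in all. FGF9, a secreted fibroblast growth factor, was given at 20 ng/ml. AI medium contains dexamethasone, rosiglitazone, 3-isobutyl-1-methylxanthine and insulin. OI medium contains dexamethasone at a lower concentration, beta-glycerol phosphate and ascorbate-2-phosphate, so the media differ in several agents at the same time. Both are made up in α-MEM with serum, while the study lists its culture medium as a commercial product. CM may thus differ from AI and OI in base medium too, apart from these agents. All 6 groups are labelled wild type, and the labels give no age of the donor mice. The study calls its RNA-seq analyses independent and speaks of biological replicates. Neither it nor the labels say whether the 3 samples of a group came from separate animals, so a p-value here reflects only how far these samples spread.

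In the glycerol phosphate pathway, glycerol 3-phosphate acyltransferase adds a first fatty acid to glycerol 3-phosphate, acylglycerol-phosphate acyltransferase adds the next and gives phosphatidic acid, lipin removes the phosphate and gives diacylglycerol, and diacylglycerol acyltransferase adds the last fatty acid. The glycerol backbone comes from glycolysis through Gpd1, from pyruvate through Pck1 (glyceroneogenesis), or from free glycerol through glycerol kinase. Adipocytes store energy as triglyceride and use this pathway heavily. Loss of AGPAT2 in people and loss of lipin 1 in mice cause lipodystrophy, a lack of fat tissue.

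The study asks how FGF9 changes the choice of BMSCs between the bone and the fat lineage. Library totals were 16719561 to 20526502 reads, and the common biological coefficient of variation over the tested genes was 7.69%. Adipocyte markers were highest in AI medium: the summed FPKM of Adipoq, Plin1, Fabp4, Cidec, Lep, Retn and Cfd was 3040 to 3403 in AI_F9, 1228 to 1403 in AI, 109 to 137 in OI_F9, 58.5 to 73.3 in OI, 47.6 to 55.7 in CM_F9 and 10.6 to 13.1 in CM. Lep, which codes for the adipocyte hormone leptin, had no read in AI, CM_F9 or CM, but had reads in AI_F9, OI_F9 and OI. Markers of other cells were present too: the 5 macrophage markers summed to 354 to 385 FPKM in AI_F9 and 1182 to 1384 FPKM in AI. FPKM, the count scaled by gene length and by library total, is used for levels. Fold changes are log2 values from edgeR's quasi-likelihood fit to the counts, and a gene was called when it changed by a log2 value of 1 or more in size and its p, adjusted after Benjamini and Hochberg over the 17631 genes, did not exceed 0.05. The standard error (SE) given with a fold change is its size over the square root of the test's F. It is implied by the test and was not estimated on its own.

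Gpd1, which reduces dihydroxyacetone phosphate from glycolysis to glycerol 3-phosphate in the cytosol, covered the widest range. Its locus is chromosome 15, plus strand (99615396 to 99622886, GRCm39). It stood at 254, 248 and 257 FPKM in the 3 AI_F9 samples and at 122, 132 and 124 FPKM in AI. It stood at 8.24, 7.52 and 8.47 FPKM in OI_F9 and at 3.22, 2.83 and 3.37 FPKM in OI. In CM_F9 it stood at 3.63, 3.21 and 4.22 FPKM, and in CM at 0.80, 0.66 and 1.17 FPKM. With FGF9 every sample lay above every sample without it in the same medium, and only CM_F9 and OI overlapped among neighbours in the order of levels. The log2 fold change with FGF9 was 1.21 in AI (SE 0.0745, adjusted p = 2.72e-12), 1.31 in OI (SE 0.103, adjusted p = 3.15e-10) and 1.99 in CM (SE 0.140, adjusted p = 4.34e-11). Gpd1 was thus called higher with FGF9 in all 3 media, and it was the 1 member of which this was true.

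Pck1, the cytosolic phosphoenolpyruvate carboxykinase, which makes phosphoenolpyruvate for glyceroneogenesis in fat and for gluconeogenesis in liver, was close to silent. It lies on the plus strand of chromosome 2 (172994841 to 173001066, GRCm39), and all 18 libraries together held 71 reads of it. It had 11, 12 and 16 reads in AI_F9 and 1, 4 and 3 reads in AI. It had 16, 1 and 5 reads in OI_F9 and 1, 0 and 0 reads in OI, and there were no reads in CM_F9, against 0, 1 and 0 in CM. The AI_F9 samples lay above the AI samples, while the OI_F9 samples overlapped those of OI. Scaled by library totals, Pck1 was 4.75 times higher in AI_F9 than in AI (39 against 8 reads, exact 95% interval 2.19 to 11.8), and 22.0 times higher in OI_F9 than in OI (22 against 1 read, interval 3.55 to 906); these intervals cover counting error only. No fold is given for CM_F9 against CM, where 0 and 1 read lie under a floor of 3 reads over the group. The fitted log2 fold changes, which for so few reads depend on edgeR's prior count, were 2.40 in AI (SE 0.721, adjusted p = 0.00847) and 3.99 in OI (SE 1.15, adjusted p = 0.00832), and both were called. The call in OI was lost without the first OI_F9 sample, which held most of that group's reads (log2 2.71, adjusted p = 0.101). In limma on log2(FPKM + 0.5) the differences were 0.36 in AI and 0.28 in OI and neither was called.

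The highest level of Pck1 in any sample was 0.26 FPKM, and Pck2, the mitochondrial form of the enzyme, stood at 10.7 to 11.1 FPKM in AI_F9 and 4.39 to 5.12 FPKM in AI. Of the summed FPKM of both forms, Pck1 made up 1.76% ± 0.387 (SD, n = 3) in AI_F9 and 0.903% ± 0.421 (n = 3) in AI. Of the hepatocyte markers Alb, Apoa1, Ttr, Tat and Serpina1a, the last 3 had no read in any group, and the 5 together reached 0.60 to 0.90 FPKM in AI_F9 and 0.06 to 0.13 FPKM in AI. Their part in the Pck1 reads was not tested. The Pck1 promoter is shown because this gene's response to cyclic AMP in liver is well known. RefSeq (GRCm38.p6) places the 250 bases before and the 50 after the start of Pck1 at chr2:173152823-173153122 on the plus strand. It reads 5′ to 3′, with the cyclic AMP response element variant TTACGTCA in capitals:

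Pck1: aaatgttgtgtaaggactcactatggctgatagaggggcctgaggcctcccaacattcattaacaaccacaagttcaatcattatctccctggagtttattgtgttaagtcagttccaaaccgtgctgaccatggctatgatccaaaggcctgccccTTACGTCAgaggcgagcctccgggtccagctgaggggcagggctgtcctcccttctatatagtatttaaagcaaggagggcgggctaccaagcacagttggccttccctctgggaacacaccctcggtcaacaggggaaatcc

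The element lies at positions -93 to -86 from the start site, and 0.499% of the 32851 RefSeq promoters of the same length hold TTACGTCA on either strand. A match is a run of letters and not a measured site. The shorter motif TGACG, which overlaps it on the opposite strand and is held by 20.8% of promoters, is part of the same letters here.

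Gpam codes for the mitochondrial glycerol 3-phosphate acyltransferase, which starts the chain. The gene is on the minus strand of chromosome 19 (55055700 to 55115670, GRCm39). It stood at 15.4, 15 and 14.5 FPKM in AI_F9 and at 12.05, 11.6 and 10.8 FPKM in AI. In OI_F9 it stood at 4.91, 4.77 and 4.08 FPKM and in OI at 6.20, 6.75 and 5.79 FPKM. In CM_F9 it stood at 4.64, 4.19 and 4.42 FPKM and in CM at 5.04, 5.61 and 5.16 FPKM. No medium showed an overlap between samples with and without FGF9, and the samples with FGF9 were the higher ones in AI and the lower ones in OI and CM. The log2 fold changes were 0.59 in AI (SE 0.0704, adjusted p = 2.16e-07), -0.49 in OI (SE 0.0767, adjusted p = 1.47e-05) and -0.32 in CM (SE 0.0775, adjusted p = 0.00220), so all were under the size of a call. CM_F9 and OI_F9 were the neighbours in the order of levels that overlapped.

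Agpat2, the acylglycerol-phosphate acyltransferase whose loss causes lipodystrophy, reached the highest level of the 7. It lies on the minus strand of chromosome 2 (26483069 to 26494429, GRCm39). It stood at 505, 501 and 557 FPKM in AI_F9 and at 221, 235 and 232 FPKM in AI. In OI_F9 it stood at 14.2, 11.96 and 13.3 FPKM and in OI at 8.72, 8.19 and 11.9 FPKM. In CM_F9 it stood at 11.7, 11.7 and 11.2 FPKM and in CM at 7.19, 7.48 and 7.94 FPKM. The samples with FGF9 were above those without it in each medium, by a narrow gap in OI, where the third OI sample was high, and CM_F9 overlapped OI. The log2 fold change was 1.39 in AI (SE 0.0833, adjusted p = 1.70e-12), a called rise, and 0.40 in OI (SE 0.102, adjusted p = 0.00286) and 0.55 in CM (SE 0.106, adjusted p = 0.000186), which were not called. Agpat2 overlaps Egfl7 on the other strand, which had 2842 reads in all against 96388 for Agpat2. Gpam and Gpd1 each overlap a predicted gene of the other strand with 103 and 138 reads, against 17741 and 66792 of their own. Whether reads were counted by strand was not stated in the methods or labels. All these reads are totals over 18 samples. Agpat2 and Gpd1 were far lower outside AI_F9 and AI, so the totals do not give the weight of the overlap in the other groups.

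The Agpat2 promoter is shown as that of the most abundant member. RefSeq (GRCm38.p6) places it at chr2:26604368-26604667 on the minus strand, and it holds no match to the cyclic AMP elements TGACGTCA and TTACGTCA or their core TGACG. It has no E-box CACGTG, which SREBP and ChREBP factors can read, no CCAAT or TATAAA, and no nuclear receptor element AGGTCA, so it has no capitals:

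Agpat2: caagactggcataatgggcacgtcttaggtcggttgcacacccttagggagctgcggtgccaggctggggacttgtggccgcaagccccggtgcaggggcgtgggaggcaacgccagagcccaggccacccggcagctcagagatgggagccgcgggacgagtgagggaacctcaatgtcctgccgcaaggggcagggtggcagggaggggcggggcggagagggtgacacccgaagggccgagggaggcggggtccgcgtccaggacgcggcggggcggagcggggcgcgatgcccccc

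Lpin1 codes for lipin 1, the phosphatidic acid phosphatase that also acts in the nucleus as a coactivator. The gene is on the minus strand of chromosome 12 (16585670 to 16696967, GRCm39). It stood at 41.0, 40.9 and 38.6 FPKM in AI_F9 and at 30.3, 29.6 and 26.7 FPKM in AI. In OI_F9 it stood at 7.60, 7.91 and 7.62 FPKM and in OI at 5.72, 5.39 and 4.91 FPKM. In CM_F9 it stood at 7.33, 7.61 and 7.23 FPKM and in CM at 4.47, 4.36 and 4.39 FPKM. Every sample with FGF9 was above every sample without it in the same medium, and OI_F9 and CM_F9 overlapped. The log2 fold changes lay close together and under the size of a call, at 0.68 in AI (SE 0.0539, adjusted p = 2.16e-10), 0.48 in OI (SE 0.0584, adjusted p = 4.29e-07) and 0.68 in CM (SE 0.0591, adjusted p = 1.78e-09). The Lpin1 promoter is shown because its gene moved by like amounts in the 3 media. RefSeq (GRCm38.p6) places it at chr12:16610917-16611216 on the minus strand, with AGGTCA in capitals at positions -74 to -69:

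Lpin1: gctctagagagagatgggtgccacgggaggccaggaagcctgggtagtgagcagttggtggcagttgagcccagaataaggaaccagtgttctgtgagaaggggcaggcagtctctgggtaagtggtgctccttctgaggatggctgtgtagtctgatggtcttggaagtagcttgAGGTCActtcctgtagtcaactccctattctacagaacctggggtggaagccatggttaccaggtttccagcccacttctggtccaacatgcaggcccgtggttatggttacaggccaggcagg

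AGGTCA stands in 16.3% of all promoters on either strand. RefSeq lists 2 promoters for Gpam on the minus strand (GRCm38.p6). That at chr19:55099428-55099727 holds AGGTCA and TGACG, and that at chr19:55127189-55127488 holds CCAAT, a motif of 37.4% of promoters. CACGTG, in 7.15% of all promoters, TGACGTCA, in 1.79%, and TATAAA, in 13.6%, stood in none of the 5 windows of the 4 members with a RefSeq promoter, and no match says only that these letters are not in the window. Which start sites these cells used was not tested, so the window shown for Lpin1 or another member may not be the promoter in use.

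Dgat1 codes for a diacylglycerol acyltransferase of the endoplasmic reticulum. It lies on the minus strand of chromosome 15 (76386215 to 76396153, GRCm39). It stood at 107, 111 and 111 FPKM in AI_F9 and at 57.2, 62.4 and 61.9 FPKM in AI. In OI_F9 it stood at 8.81, 7.55 and 9.86 FPKM and in OI at 7.65, 7.61 and 6.91 FPKM. In CM_F9 it stood at 8.55, 8.61 and 8.32 FPKM and in CM at 6.42, 5.43 and 6.12 FPKM. The groups were apart in AI and CM and overlapped in OI, and OI_F9 also overlapped CM_F9. Dgat1 rose in AI by a log2 fold change of 1.06 (SE 0.0663, adjusted p = 3.44e-12), which fell under the size of a call with scaling by library totals (0.86) and in limma on log2(FPKM + 0.5) (0.85). It was 0.19 in OI (SE 0.0806, adjusted p = 0.0597) and 0.44 in CM (SE 0.0821, adjusted p = 0.000136), neither called.

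Dgat2, an unrelated protein with the same activity that works at the endoplasmic reticulum and the surface of lipid droplets, had the largest rise of the 6 well-measured members in AI. Its locus is chromosome 7, minus strand (98802865 to 98831926, GRCm39). It stood at 168, 171 and 178 FPKM in AI_F9 and at 50.3, 51.4 and 50.2 FPKM in AI. In OI_F9 it stood at 6.10, 5.83 and 7.05 FPKM and in OI at 2.31, 2.57 and 2.24 FPKM. In CM_F9 it stood at 4.15, 4.23 and 3.92 FPKM and in CM at 2.13, 2.35 and 1.82 FPKM. With FGF9 all samples were above those without it in each medium, and OI and CM overlapped. The log2 fold change was 1.98 in AI (SE 0.0646, adjusted p = 2.69e-17), 1.37 in OI (SE 0.0920, adjusted p = 1.90e-11) and 0.91 in CM (SE 0.0980, adjusted p = 7.31e-08), of which the last was not called, but reached 1.01 and a call without the second CM sample.

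**Figure D1:**
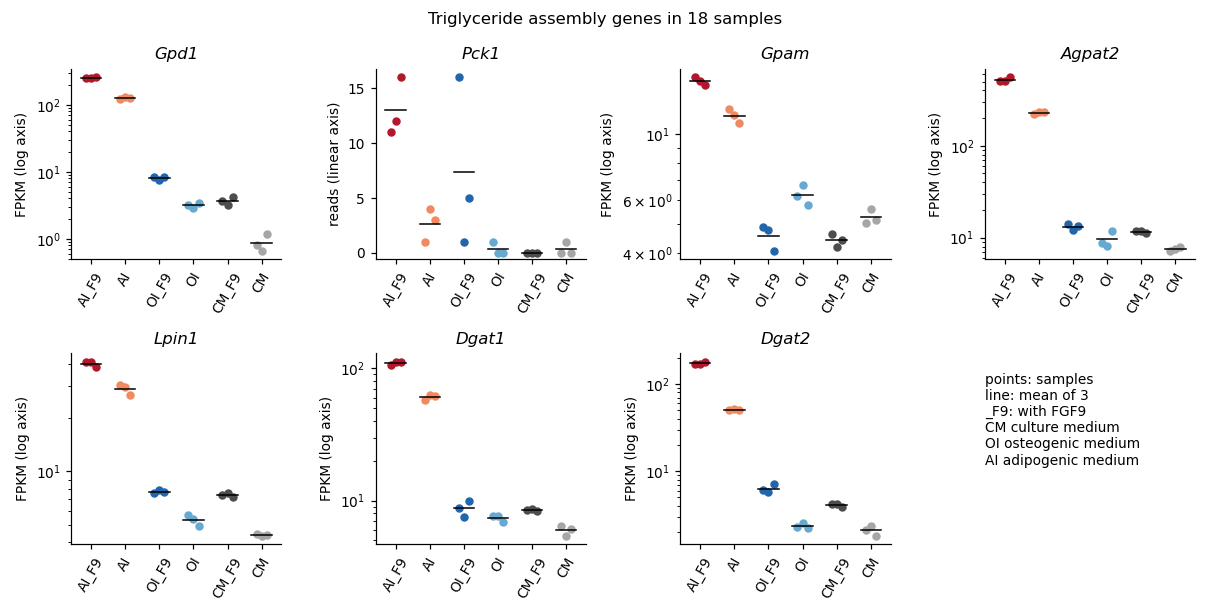
FPKM on log axes for 6 genes and reads on a linear axis for Pck1, in each of the 18 samples (points), with the mean of the 3 samples of a group (line). The AI_F9 samples were the highest in all panels with the exception of Pck1, where 1 OI_F9 sample had 16 reads, as many as the highest AI_F9 sample.

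Of the 3 comparisons with and without FGF9, that in adipogenic medium had the most members called. Dgat2, Agpat2, Gpd1 and Dgat1 rose in AI_F9 relative to AI, and Lpin1 and Gpam had log2 fold changes of 0.68 and 0.59, under the size of a call. Pck1 was called too, but it passed the filter through AI_F9 alone, so it is not counted as support. Without Pck1, 4 of 6 members were called higher and none lower (5 of 7 with it), where 6.66% of all tested genes were called higher and 9.32% lower. The median log2 fold change was 1.21 over the 7 and 1.14 without Pck1, beside 0.05 over all tested genes. The summed FPKM of the 7 was 1112 ± 39.2 in AI_F9 and 507 ± 14.2 in AI (SD, n = 3 each). With scaling by library totals the median of all genes moved to -0.16 and the share of calls that were higher moved to 27.8%, from 41.7% with TMM scaling, and Dgat1 was the member whose call was lost. FPKM rests on library totals too, so FPKM ratios in AI come out lower than the fitted folds.

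Marker genes of several cell types moved in the same comparison. The adipocyte markers Adipoq, Fabp4 and Retn were called higher in AI_F9, 3 of the 6 tested, while all 5 macrophage markers, all 5 endothelial markers, 4 of 5 chondrocyte markers and 3 of 5 smooth muscle markers were called lower. Of 7 osteoblast markers, Ibsp (log2 -5.98), Col1a1 (-4.27) and Alpl (-3.49) were called lower and Dmp1 (2.34) and Bglap (1.73) higher, and the 7 summed to 50.2 to 54.0 FPKM in AI_F9 and 653 to 679 FPKM in AI. The endothelial markers summed to 1.21 to 1.48 FPKM in AI_F9 and 8.44 to 10.5 FPKM in AI, and the smooth muscle markers to 1.76 to 1.95 FPKM in AI_F9 and 235 to 269.7 FPKM in AI. In bulk samples fewer cells of a type and less RNA per cell cannot be told apart, and the part of these shifts in the rise of the assembly genes was not tested. Set against Plin1, which coats the lipid droplets of adipocytes, the members did not behave alike in AI. Plin1 (log2 0.95) rose less there than Adipoq (1.69), Fabp4 (1.71) and Retn (2.23), and more than Cidec (0.81) and Cfd (0.23). Agpat2 (1.39), Gpd1 (1.21) and Dgat1 (1.06) rose less than Adipoq, Fabp4 and Retn. Dgat2 (1.98) rose more than Adipoq and Fabp4 and less than Retn. For each of these members the direction of the ratio thus depends on the marker. Ratios to markers other than Plin1 were not computed. The FPKM ratio of Dgat2 over Plin1 was 0.751 ± 0.0322 in AI_F9 and 0.369 ± 0.0143 in AI (SD, n = 3 each), with no overlap. That of Dgat1 over Plin1 was 0.477 ± 0.0109 in AI_F9 and 0.441 ± 0.0269 in AI, and the samples overlapped. That of Lpin1 over Plin1 was lower, at 0.175 ± 0.0047 in AI_F9 and 0.210 ± 0.0115 in AI, with no overlap. The ratio of Agpat2 over Plin1 was 2.27 ± 0.171 in AI_F9 and 1.67 ± 0.0855 in AI, and that of Gpd1 over Plin1 was 1.10 ± 0.0421 in AI_F9 and 0.918 ± 0.0247 in AI, both without overlap. These ratios were chosen after the values were seen, and the exact permutation test of 3 against 3 gave p = 0.2 for Dgat1 and 0.1 for the other 4 (two-sided), or 0.222 and 0.115 after adjustment over the 30 ratio comparisons made, where 0.1 is the smallest p it can give.

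In osteogenic medium Dgat2, of the last acylation, and Gpd1, of the glycerol supply, rose with FGF9. Pck1 was also called, on 22 reads against 1. Of the members 3 of 7 were called higher and none lower, or 2 of 6 without Pck1, where 5.48% of all tested genes were called higher and 6.07% lower. Gpam was lower in OI_F9 and under the size of a call, and the median log2 fold change was 0.48 over the 7 and 0.44 without Pck1, beside 0.01 over all genes. The summed FPKM was 48.7 ± 2.75 in OI_F9 and 34.1 ± 0.919 in OI (SD, n = 3 each). Of the 6 adipocyte markers tested, Fabp4, Plin1, Cidec and Retn were called higher in OI_F9, and all 5 chondrocyte and all 5 smooth muscle markers were called lower, with the smooth muscle markers summing to 46.3 to 61.3 FPKM in OI_F9 and 783 to 962 FPKM in OI. The osteoblast markers Alpl (log2 -5.78), Ibsp (-3.05) and Col1a1 (-2.79) were called lower and Dmp1 (4.92) and Bglap (2.30) higher, and the list summed to 543 to 578 FPKM in OI_F9 and 2078 to 2284 FPKM in OI. Their part in the result was not tested. The ratio of Dgat2 over Plin1 overlapped here, at 0.796 ± 0.113 in OI_F9 and 0.700 ± 0.0919 in OI (exact permutation p = 0.4), as did that of Gpd1 over Plin1, at 1.01 ± 0.0827 in OI_F9 and 0.924 ± 0.109 in OI (exact permutation p = 0.3). The other ratios to Plin1 were lower in OI_F9 without overlap. That of Agpat2 was 1.65 ± 0.0827 in OI_F9 and 2.85 ± 0.755 in OI, that of Dgat1 was 1.10 ± 0.164 in OI_F9 and 2.17 ± 0.166 in OI, and that of Lpin1 was 0.970 ± 0.0886 in OI_F9 and 1.57 ± 0.0839 in OI (exact permutation p = 0.1 each, adjusted 0.115).

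In culture medium, with no inducing agent, Gpd1 alone among the members rose with FGF9 at the size of a call. This is 1 of 7 members, and 1 of 6 without Pck1, where 5.50% of all tested genes were called higher and 5.16% lower. Agpat2, Lpin1, Dgat1 and Dgat2 had positive log2 fold changes of 0.44 to 0.91 with adjusted p-values under 0.05, and Gpam a negative one. So 6 of 7 members passed the p threshold without regard to size, Gpam in the other direction. The shares of 5.50% and 5.16% also require the size and are no background for this count. Many genes passed on p alone: Rab18, at rank 6415 of the 17631 tested genes by p, had an adjusted p of 0.0438 in edgeR. The median was 0.55 over the 7 and 0.62 without Pck1, beside 0.02 over all genes. The summed FPKM was 39.6 ± 0.348 in CM_F9 and 26.2 ± 0.365 in CM (SD, n = 3 each). All 6 adipocyte markers tested were called higher in CM_F9, and the smooth muscle markers summed to 111 to 115 FPKM in CM_F9 and 935 to 1056 FPKM in CM. Each chondrocyte marker was called lower, as were Adgre1 and Csf1r of the macrophage and Tek and Emcn of the endothelial markers. Of the stromal markers, Pdgfra, Ly6a and Cd44 were called higher in CM_F9. In AI_F9 Ly6a was called higher and Pdgfrb lower, and in OI_F9 no stromal marker was called. The osteoblast markers Alpl (log2 -6.05), Col1a1 (-2.55) and Ibsp (-1.86) were called lower and Dmp1 (6.01) and Bglap (3.02) higher, and the list summed to 606 to 636 FPKM in CM_F9 and 1630 to 1740 FPKM in CM. The part of these markers in the result was not tested either. The ratio of Dgat2 over Plin1 was lower in CM_F9 (0.617 ± 0.0429) than in CM (2.31 ± 1.29), where Plin1 averaged 1.07 FPKM. The ratios of Agpat2, Gpd1, Dgat1 and Lpin1 over Plin1 were also lower in CM_F9, at means of 1.74, 0.558, 1.28 and 1.11 in CM_F9 and 7.95, 0.858, 6.22 and 4.67 in CM, without overlap (exact permutation p = 0.1 each, adjusted 0.115).

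**Figure D2:**
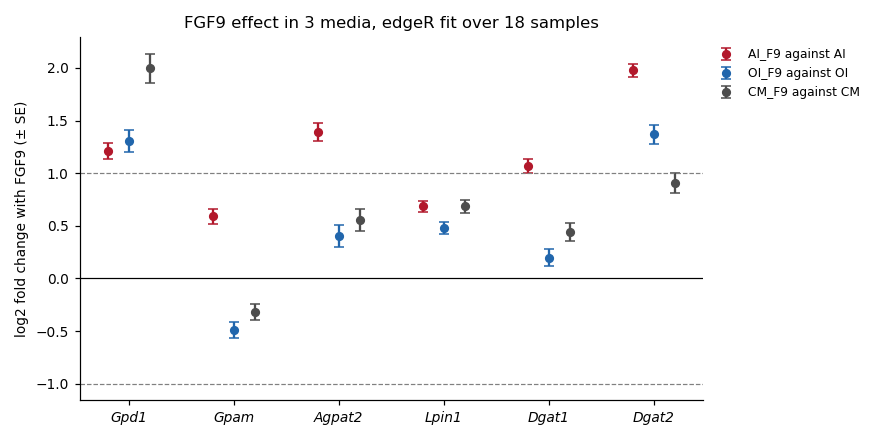
Log2 fold change with FGF9 (points) ± SE (bars) for 6 genes in AI, OI and CM, from the edgeR fit over 18 samples. The SE is derived from the F of the test, and dashed lines at 1 and -1 mark the size of a call. Gpd1 lies above 1 in all 3 media, Dgat2 in AI and OI, Agpat2 and Dgat1 in AI, and Gpam is positive in AI and negative in OI and CM.

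Whether the FGF9 effect differed between media was tested as the difference of the fold changes. Between AI and CM, Dgat2 responded more in AI by a log2 value of 1.07 (SE 0.118, adjusted p = 1.14e-07), which makes 1 of 7 members called, and 1 of 6 without Pck1, where 5.66% of all genes were called with the larger effect in AI. That call was lost with scaling by library totals (0.80), in limma on log2(FPKM + 0.5) (0.93) and log2(FPKM + 0.1) (0.83), and without the second CM sample (0.97). Gpam (0.91), Agpat2 (0.84) and Dgat1 (0.62) also had larger effects in AI with adjusted p-values of 2.20e-07, 2.15e-05 and 4.32e-05, without reaching the size of a call. Gpd1 was the exception, with a smaller effect in AI than in CM (-0.78, SE 0.163, adjusted p = 0.000436), which reached -1.05 and a call with scaling by library totals and -1.04 without the third CM sample. The 2 effects on Lpin1 differed by 0.00 (adjusted p = 1.00).

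Between AI and OI, Gpam had the larger effect in AI by 1.08 (SE 0.104, adjusted p = 1.34e-08), 1 of 7 members and 1 of 6 without Pck1, where 6.00% of all genes were called with the larger effect in AI. It was lost with scaling by library totals (0.83), in limma on log2(FPKM + 0.5) (0.78) and without the third OI_F9 sample (0.98). Agpat2 stood just under the size of a call at 0.99 (SE 0.131, adjusted p = 1.81e-06) and passed it without any 1 of the first OI, second OI, first OI_F9, first AI_F9 or second AI_F9 samples (1.01 to 1.09). The difference was 0.87 for Dgat1 (adjusted p = 3.84e-07), 0.61 for Dgat2 (adjusted p = 0.000143), 0.20 for Lpin1 (adjusted p = 0.0461) and -0.10 for Gpd1 (adjusted p = 0.591). Between OI and CM edgeR called 0 of 7 members in either direction, and 0 of 6 without Pck1, where 1.63% of all genes were called, with 4 of 7 at an unadjusted p under 0.05 and 0 called by DESeq2. For the background of that p, Pnpla3 stood at rank 2599 of the 17631 tested genes in this comparison. Its unadjusted p in edgeR was 0.0478. Gpd1 had a smaller effect in OI than in CM by -0.69 (adjusted p = 0.0223) and Dgat2 a larger one by 0.46 (adjusted p = 0.0484). The Pck1 differences, on fewer reads, had adjusted p-values of 0.258, 0.428 and 0.424 in these 3 comparisons, and the comparisons share samples with each other. With scaling by library totals 20.7% of all calls between AI and CM, and 23.1% between AI and OI, had the larger effect in AI, against 40.1% and 42.7% with TMM scaling.

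Between AI and CM the fold changes were larger in size than any with FGF9 for each of the 6 members other than Pck1. Without FGF9, Gpd1 was 132 times higher in AI than in CM, Agpat2 28.1 times, Dgat2 22.3 times, Dgat1 9.34 times, Lpin1 6.05 times and Gpam 2.01 times, and these are log2 fold changes of 7.05 (SE 0.114), 4.81 (SE 0.103), 4.48 (SE 0.0842), 3.22 (SE 0.0775), 2.60 (SE 0.0592) and 1.01 (SE 0.0738). These 6 of 7 members, and 6 of 6 without Pck1, were called (5 by DESeq2), where 8.68% of all genes were called higher, and the adjusted p of Gpam was 4.27e-11. Gpam lay at the size of a call and slipped under it in 10 of 27 alternatives, for example at 0.98 without the first CM sample and 0.96 without the first AI sample. Pck1 had 8 reads in AI against 1 in CM (ratio 8.45, exact 95% interval 1.13 to 375) and was not called (adjusted p = 0.116). Against OI, AI was higher for 5 of 7 members, and 5 of 6 without Pck1, namely Gpd1, Agpat2, Dgat2, Dgat1 and Lpin1, with log2 fold changes of 2.34 to 5.23, where 7.80% of all genes were called higher, and Gpam stood at 0.79 (SE 0.0732). OI against CM called Gpd1 alone, at 1.81 (SE 0.143, adjusted p = 9.99e-10), 1 of 7 members, and 1 of 6 without Pck1, where 3.55% of all genes were called higher.

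The same media were compared under FGF9. AI_F9 exceeded CM_F9 for 6 of 6 members without Pck1, where 13.3% of all genes were called higher, from a log2 fold change of 1.92 for Gpam to 6.26 for Gpd1. Pck1 was called as well, with 39 reads against 0, at least 12.3-fold against a floor of 3 reads over the group, but it passed the filter through AI_F9 alone and had to differ, so it is not counted as support. AI_F9 exceeded OI_F9 for 6 of 7 members, and 6 of 6 without Pck1, where 12.7% were called higher, while Pck1 had 39 against 22 reads (ratio 1.71, exact 95% interval 0.987 to 3.02), was not called, and was called without the first OI_F9 sample (log2 2.204, adjusted p = 0.0094). OI_F9 exceeded CM_F9 for Gpd1 (1.13, SE 0.101, adjusted p = 1.29e-08) and for Pck1 (22 against 0 reads, at least 7.20-fold against the same floor), 2 of 7 members, and 1 of 6 without Pck1, where 2.31% were called higher. Without the first OI_F9 sample the adjusted p of Pck1 there was 0.05001 and it was not called. Dgat2 stood at 0.61 (SE 0.0849, adjusted p = 9.47e-06), under the size of a call.

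Each step of the chain has more than 1 gene. The members' shares of their steps varied between the groups, though not in every comparison. Since FPKM is per length, levels of different genes can be set side by side. Gpam, the mitochondrial acyltransferase, made up 10.9% ± 0.547 of the summed FPKM of the 4 glycerol 3-phosphate acyltransferases in AI_F9 and 12.9% ± 0.910 in AI, while it held 20.8% ± 1.62 in OI_F9, 29.0% ± 2.17 in OI, 20.6% ± 0.932 in CM_F9 and 26.5% ± 1.70 in CM (SD, n = 3 each). Gpat3, an acyltransferase of the endoplasmic reticulum, held 66.9% ± 0.442 in AI_F9 and 45.4% ± 1.58 in AI, and 11.1% in OI_F9, 4.46% in OI, 10.5% in CM_F9 and 3.96% in CM. Gpat3 stood at 90.2, 90.2 and 94.6 FPKM in AI_F9 and at 38.4, 40.3 and 42.5 FPKM in AI, and at 0.72 to 0.87 FPKM in CM. It rose with FGF9 in all 3 media, by log2 fold changes of 1.39 in AI (SE 0.0661, adjusted p = 2.73e-14), 1.29 in OI (SE 0.122, adjusted p = 6.91e-09) and 1.45 in CM (SE 0.127, adjusted p = 2.13e-09). Gpat4, its close relative, stood at a mean of 30.1 FPKM in AI_F9 and 36.8 FPKM in AI (log2 -0.09, adjusted p = 0.135).

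Agpat2 held 91.2% ± 0.488 of its step in AI_F9 and 79.4% ± 0.195 in AI, but 23.1% ± 0.843 in OI_F9, 18.2% ± 2.74 in OI, 22.6% ± 0.465 in CM_F9 and 18.2% ± 0.449 in CM, where Agpat1 was the most abundant of the 5 on average in those 4 groups. Agpat4 fell in AI_F9 (log2 -1.28, SE 0.0713, adjusted p = 4.48e-13). Lpin1 held 88.4% ± 0.157 of the lipins in AI_F9 and 78.6% ± 1.03 in AI, and 34.3% to 45.2% in the samples of the other 4 groups. Its share overlapped between OI_F9 (35.6% ± 1.11) and OI (36.8% ± 1.65). The ratio of Lpin1 over Lpin3 overlapped there too (exact permutation p = 0.4). Lpin3 stood at a mean of 10.7 FPKM in OI_F9 and 6.83 FPKM in OI, above Lpin1 in both, and at 2.11 FPKM in AI_F9 and 3.73 FPKM in AI. Gpd1 held 97.1% ± 0.0503 of the cytosolic dehydrogenases in AI_F9 and 95.03% ± 0.297 in AI, 57.1% ± 2.09 in OI_F9 and 32.0% ± 2.38 in OI, and 41.1% ± 3.47 in CM_F9 and 13.2% ± 3.71 in CM, the rest being Gpd1l, which averaged 5.26 to 7.56 FPKM over the 6 groups.

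The order of the diacylglycerol acyltransferases differed with FGF9 in adipogenic medium. The ratio of Dgat2 over Dgat1 in FPKM was 1.57 ± 0.0368 in AI_F9 and 0.838 ± 0.0360 in AI, 0.727 ± 0.0411 in OI_F9 and 0.321 ± 0.0181 in OI, and 0.483 ± 0.0104 in CM_F9 and 0.354 ± 0.0704 in CM (SD, n = 3 each). The samples with FGF9 lay above those without it in each medium, and Dgat2 was the more abundant of both genes in the AI_F9 samples only. The exact permutation test gave p = 0.1 in each medium, the smallest that 3 against 3 samples allow, and 0.115 after adjustment over 30 ratios.

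**Figure D3:**
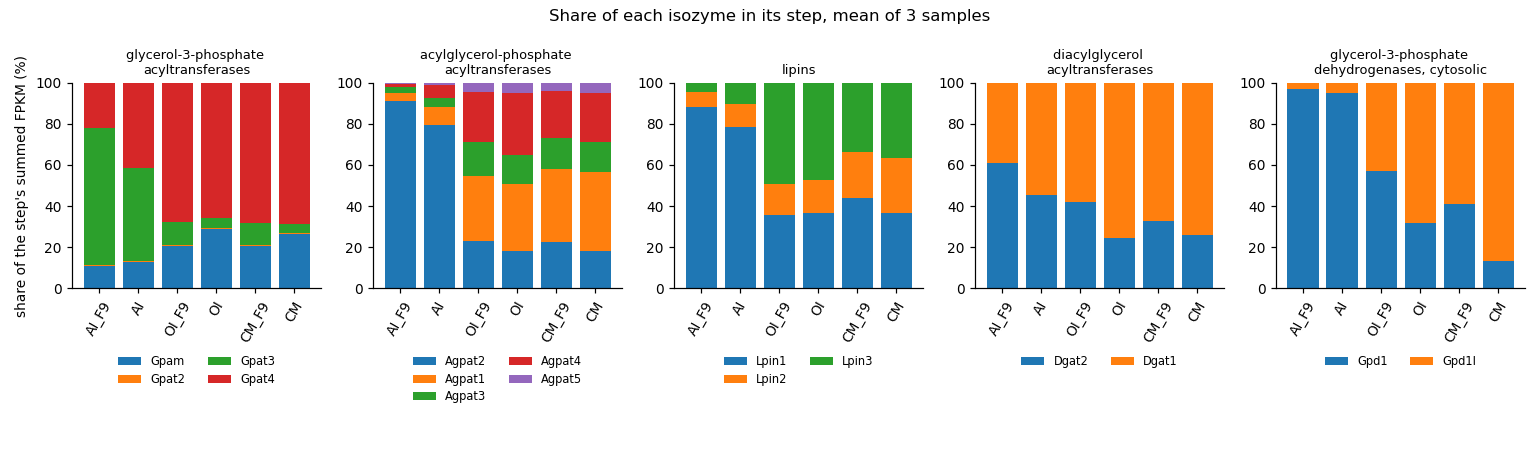
Mean share (%) of each isozyme in the summed FPKM of its step, for 5 steps and 6 groups, each bar adding to 100%. Agpat2, Lpin1 and Gpd1 take most of their steps in AI_F9 and AI, Gpat3 takes 66.9% of its step in AI_F9 where Gpam takes 10.9%, and Dgat2 takes 61.1% of its step in AI_F9 and 45.6% in AI.

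Genes that feed or surround the chain were counted from lists of known function. Over all tested genes 6.66% were called higher and 9.32% lower in AI, 5.48% and 6.07% in OI, and 5.50% and 5.16% in CM, and the counts of each list stand beside these shares. Of 10 tested genes of glycerol 3-phosphate supply, 3 were called higher in AI_F9: Gk, the glycerol kinase (log2 1.42, SE 0.0694, adjusted p = 4.52e-14), Pck2 (1.42, SE 0.0722, adjusted p = 8.60e-14) and Mdh1, the cytosolic malate dehydrogenase (1.15, SE 0.0791, adjusted p = 1.92e-11), and the median over the list was 0.99. In CM the called genes of this list were Gpd2, the mitochondrial glycerol 3-phosphate dehydrogenase (1.06, and 1.00 and not called without the third CM sample), and Aqp7, a glycerol channel (2.09), while in OI edgeR called 0 of 10, with 5 at an unadjusted p under 0.05 and 0 by DESeq2. Unadjusted p-values of this size were common among all genes in OI. Cebpb, at rank 8142 of the 17631 tested genes by p, had 0.0457 there in edgeR, so the 5 are no result about the list. Of 8 genes of acyl-CoA supply, Acsl1, which activates long-chain fatty acids, rose in AI (1.26, SE 0.0556, adjusted p = 6.28e-15) and in CM (1.25, SE 0.0615, adjusted p = 6.49e-14) and stood at 0.96 in OI, and Dbi, which binds acyl-CoA, rose in AI (1.18, SE 0.0855, adjusted p = 4.94e-11). The calls of Mdh1 and Dbi in AI were lost with scaling by library totals (0.95 and 0.97).

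Downstream of assembly, none of 9 tested genes of droplet formation was called by edgeR or DESeq2 in AI, with all 9 at an unadjusted p under 0.05 and a median of 0.64, while Tmem159, which codes for a partner of seipin, was called lower (-1.01) with scaling by library totals. Such p-values were common among all genes in AI: Pisd, at rank 9663 of the 17631 tested genes by p, had an unadjusted p of 0.0456 in edgeR. Plin1 stood at 0.95 and Cidec, which fuses droplets, at 0.81 there, whereas both rose in OI (1.17 and 1.22) and in CM (2.57 and 3.59). Of 9 genes of triglyceride hydrolysis, 5 were called higher in AI, beside 6.66% of all genes, among them G0s2, an inhibitor of the lipase ATGL (2.10, SE 0.0911, adjusted p = 4.86e-15), Lpl, the lipase that frees fatty acids from lipoproteins (1.22, SE 0.0664, adjusted p = 3.16e-13), Pnpla2, which codes for ATGL (1.15, SE 0.0663, adjusted p = 8.81e-13), and Mgll, the monoglyceride lipase (1.05, SE 0.0695, adjusted p = 9.53e-12). The list's median was 1.05 in AI, beside 0.05 over all genes, and Pnpla2 and Mgll were lost with scaling by library totals (0.94 and 0.85). In OI 2 of 9 were called, Dagla and Pnpla3, and in CM 3 of 9, Lipe, Dagla and Pnpla3, of which Dagla was lost without any 1 of CM samples 1 and 3 and CM_F9 samples 1 and 3 (0.95 to 1.00).

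The phospholipid branch draws on the same phosphatidic acid and diacylglycerol. Of its 22 tested genes, 2 were called higher in AI, Etnk1 and Pemt, and 2 lower, Plpp1 and Pcyt1b, beside 6.66% and 9.32% of all genes, so these shares lie near the background and are no result about the branch. The median was -0.01, and Etnk1 was lost with scaling by library totals (0.87). Plpp1, a lipid phosphate phosphatase of the cell surface, fell with FGF9 in all 3 media, by -1.20 in AI (SE 0.0773, adjusted p = 6.68e-12), -1.50 in OI (SE 0.0758, adjusted p = 1.03e-13) and -1.94 in CM (SE 0.0772, adjusted p = 1.14e-15). Pcyt1b averaged 0.0133 FPKM in AI_F9 and 0.0667 FPKM in AI. In edgeR it was called lower in OI (-2.07, SE 0.195, adjusted p = 6.74e-09) and in CM (-1.41, SE 0.179, adjusted p = 8.94e-07) as well. Of 14 regulators of the chain, 5 were called higher in AI, beside 6.66% of all genes, among them Srebf1, the factor SREBP1 (1.10, SE 0.0633, adjusted p = 8.07e-13), Pparg, the target of rosiglitazone (1.11, SE 0.0851, adjusted p = 1.28e-10), and Mlxipl, which codes for ChREBP (1.30, SE 0.112, adjusted p = 9.99e-10), and Irs1, an insulin receptor substrate, fell (-1.52, SE 0.133, adjusted p = 1.35e-09). In CM Mlxipl was called higher (1.89) and Irs1 lower (-1.13), and in OI edgeR and DESeq2 called 0 of 14, with 10 at an unadjusted p under 0.05. As given for the supply genes, such p-values were common among all genes in OI. Srebf1 and Pparg stood at 0.89 and 0.91 in AI with scaling by library totals, under the size of a call. Pparg was not higher with FGF9 in the other media. In edgeR with TMM scaling it stood at -0.32 in OI (adjusted p = 0.00807) and -0.06 in CM (adjusted p = 0.667). Of the 5 gluconeogenesis genes 2 were tested, and edgeR and DESeq2 called 0 in AI, with both at an unadjusted p under 0.05. As given for droplet formation, such p-values were common among all genes in AI.

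**Figure D4:**
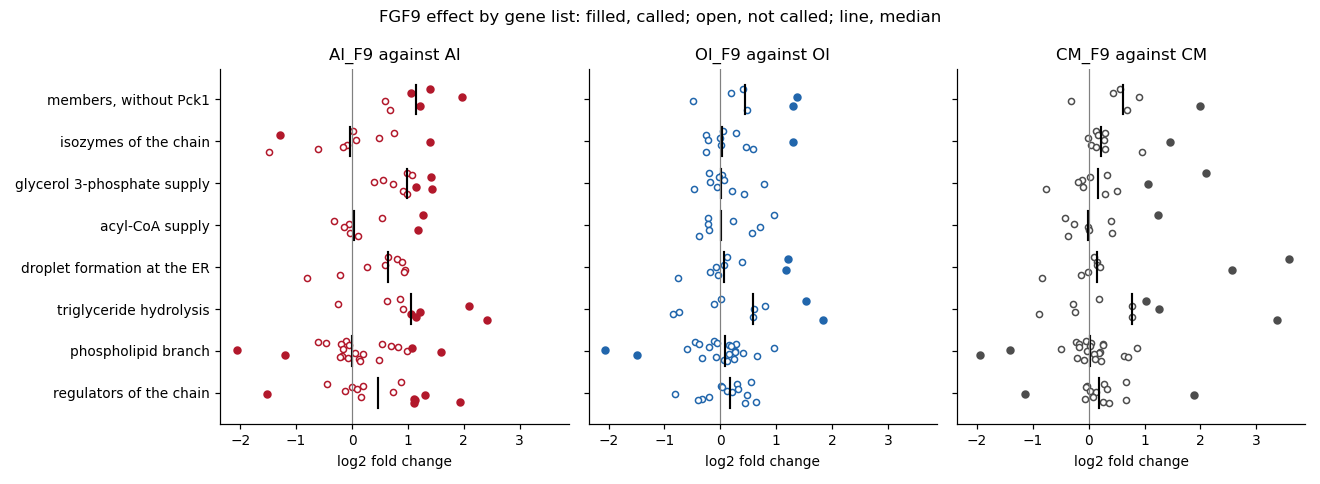
Log2 fold change with FGF9 in AI, OI and CM for the tested genes of 8 lists, called genes filled, others open, with the median of each list as a line. The medians of the members without Pck1 (1.14), of triglyceride hydrolysis (1.05) and of glycerol 3-phosphate supply (0.99) are the farthest to the right in AI, and that of the phospholipid branch lies at -0.01.

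The same lists were compared between AI and CM without FGF9, where 8.68% of all genes were called higher. AI exceeded CM for Gpat3 (log2 5.57, SE 0.0985), Gpat4 (1.31, SE 0.0479) and Gpat2 among 10 isozymes tested, with Mogat2 lower, and the group means of Gpat2 and Mogat2 were at most 0.330 and 0.527 FPKM. It exceeded CM for 4 of 10 supply genes, among them Pcx, the pyruvate carboxylase (4.29, SE 0.0725), Gk (2.27, SE 0.0793) and Aqp7 (5.17, SE 0.271), while Pck2 was lower in AI (-1.32, SE 0.0721, adjusted p = 2.18e-13). Pck2 stood at 10.9 ± 0.221 FPKM in AI_F9 and 4.70 ± 0.376 FPKM in AI, and at 10.8 ± 0.898 FPKM in CM (SD, n = 3 each). Acsl1 (5.82, SE 0.0692), Cidec (11.7, SE 0.199), Plin1 (6.89, SE 0.139), Pnpla2 (5.65, SE 0.0834) and Lipe (5.61, SE 0.116) were among the called genes of the lists that act on either side of the chain.

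The members were also set beside all genes with at least 5 FPKM in a group, 9081 in all, by the root mean square difference of log2(FPKM + 0.5), each gene centred on its own mean, over the 18 samples. The genes most like Agpat2 were Acot5 (0.226), Gpat3 (0.251) and Chchd10 (0.282), and those most like Dgat2 were Slc36a2 (0.242), Lgals12 (0.280) and Gpat3 (0.308). Dgat1 was closest to Acadl (0.167), Pex16 (0.198) and Fasn (0.205), and Gpd1 to Acsl1 (0.305), Plin1 (0.315) and Fabp4 (0.341). Lpin1 was closest to mt-Rnr2 (0.175), Gnai1 (0.176) and Kyat1 (0.186), and Gpam to Ppp1r15b (0.0907), Fgfrl1 (0.114) and Rexo5 (0.115). Among the 6 members other than Pck1, Agpat2 and Dgat2 were the closest, at 0.384, and Gpd1 and Gpam the farthest, at 2.22. For Pck1 the measure is set by its level near 0 and the nearest genes, Elovl5, Pomt1 and Wdr77, were those that varied little, so it says nothing of its pattern. The points share the same 18 libraries, and the measure is a description.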

How the data were processed

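Per the labels, the authors' tools were cutadapt 1.9.1 for trimming, HISAT2 2.2.1 for alignment (build GRCm39) and HTSeq 0.6.1 for counting. Annotation release and strand setting were not stated in the methods or labels. The deposited table holds raw counts of 56691 genes in 18 samples, FPKM that the authors computed from them, and exonic gene sizes, a deposited column of other kind. All FPKM of at least 5 matched count, size and library total within 1% (smaller values within 0.01). FPKM has no correction for composition.

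Library totals were 16719561 to 20526502 reads. The edgeR package 4.0.16 under R 4.3.3 fitted the counts after TMM scaling and filterByExpr, with 1 mean per group over all 18 samples and quasi-likelihood tests, in 12 comparisons, with p-values adjusted by Benjamini and Hochberg over 17631 genes. The study used DESeq2; edgeR suits the counts, and DESeq2 1.42.0, limma 3.58.1 on log2(FPKM + 0.5), other scalings and filters, a replicate block and leaving out each sample were alternatives (27 in all). The code was tested on simulated data. The same replicate numbers occur in all groups and were used as a block only in an alternative. Intervals for Pck1 are exact binomial at 95%.

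The members and lists were chosen with earlier results of these data known. Genes were named by rule: all members; of each list those that passed, or the 4 with the smallest p; isozymes for their FPKM; the 3 most alike genes per member. Plin1, Cidec, Acsl1, Gpat4 and Pparg where they did not pass, and Gpd1l and Tmem159, were chosen after their values were seen. Promoters are RefSeq's; matches were found for 4 of 7 members. Exact tests of ratios were added after the values were seen. No sample was left out of the reported fit. Protein sequences were not analysed here.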

Additional observations from a re-analysis of the deposited data

Results flagged for a closer look

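The FGF9 effect on Dgat2 was larger in AI than in CM by a log2 value of 1.07 (edgeR, adjusted p = 1.14e-07), and it is listed because the test of the difference itself passed the size and p thresholds. Its range over 27 alternatives was 0.80 to 1.18, and it was positive in each.

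The FGF9 effect on Gpam was larger in AI than in OI by a log2 value of 1.08 (edgeR, adjusted p = 1.34e-08), and it is listed for the same reason. Gpam was higher with FGF9 in 3 of 3 AI_F9 samples and lower in 3 of 3 OI_F9 samples than in every sample without it, and the difference ranged from 0.73 to 1.14 over 27 alternatives. Groups of 3 samples are too small for the test of single outlying samples.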

How the results depend on the processing

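Of the counts of called members in 12 comparisons, those for FGF9 in OI, the OI minus CM effect, the 3 comparisons of media without FGF9, AI_F9 against CM_F9 and AI_F9 against OI_F9 stayed within 1.5 times in 27 alternatives, and no result changed sign while called. For FGF9 in AI, 5 called members, Pck1 among them, became 3 in limma on log2(FPKM + 0.5) and log2(FPKM + 1), where Pck1 and Dgat1 were lost. For the AI minus CM effect, 1 became 0 in limma on log2(FPKM + 0.5). Dgat2 also lost its call with scaling by library totals (0.80), where Gpd1 gained one (-1.05). In limma on log2(FPKM + 0.1) Dgat2 lost its call (0.83) and Pck1 gained one (1.14), so these counts stayed at 1. For the AI minus OI effect, 1 became 0 with scaling by library totals and in limma with each of the pseudocounts 0.5, 0.1 and 1, and 2 with a filter of a mean of 50 reads. For OI_F9 against CM_F9, 2 became 1 with that filter, which drops Pck1, 1 in limma with 0.5 and 0.1, and 0 with 1. Leaving out 1 sample gave 1 to 2 for FGF9 in CM, 0 to 2 for AI minus CM, 0 to 2 for AI minus OI and 1 to 2 for OI_F9 against CM_F9. Beyond the construction of each alternative, the cause was not tested.

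The labels and methods do not say that a replicate number marks a shared batch, and same-numbered samples of different groups correlated at -0.01 to 0.33 (mean 0.09), so not every pair exceeded 0.1 and the numbers were not taken as pairing. Other pairs correlated at -0.20 to 0.12 (mean -0.05) and 16 of 18 samples correlated best with their own number, a hint of pairing from the data and not from the design. With a replicate block the members called were 5 for FGF9 in AI, 3 in OI and 1 in CM, as without it, and no member's call changed. At 71 reads in all, Pck1 is limited by depth.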
